A study of Mus musculus with 4 samples.

Results

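The cells described here are keratin-rich, Epcam-low epithelial cells of 2 mouse pancreatic tumors, set side by side in 2 sorted fractions of each tumor. The members were chosen by measured values. Each had 500 genes or more and mitochondrial UMIs of no more than 10% (a UMI is a transcript molecule counted once). It also had at least 20 UMIs of Krt8 plus Krt18 and under 3 of Epcam per 10000 UMIs, no UMI of the leukocyte gene Ptprc, and at most 1 of the mesothelial genes Upk3b, Lrrn4, Nkain4 and Gpm6a. Of 7984 cells that passed the quality limits, 2098 were members. Both tumors arose in KPC mice on a C57BL/6J background, whose genotype is KrasLSL-G12D/+, Trp53LSL-R172H/+, Pdx1-Cre. Cre under the Pdx1 promoter acts in the pancreatic epithelial lineage, so the 2 alleles are switched on in epithelium and not in the tumor stroma. The labels used here give no age for the mice. The all live group held DAPI- cells of each tumor, and the sorted CAF group (cancer-associated fibroblasts) held DAPI-CD45-CD31-EpCAM-PDPN+ cells. The labels place EpCAM in that gate, while the antibodies they list are against CD31, CD45, PDPN and PDGFRa. Each group had 2 libraries, 1 per tumor, and libraries with the same number came from the same tumor, so every comparison rests on 2 tumors.

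Epcam encodes a cell-adhesion glycoprotein of the surface of most simple epithelia, and antibodies against it are a usual handle for removing epithelium from a stromal sort. Keratins 8 and 18 form the intermediate filaments of simple epithelium, while vimentin, the filament of mesenchymal cells, appears in carcinoma cells that have moved toward a mesenchymal state, in which epithelial adhesion genes are often low. Podoplanin (Pdpn), the positive marker of the gate, is a mucin-like membrane protein of fibroblasts, mesothelium and lymphatic endothelium.

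The 4 libraries held between 14972652 and 30950993 UMIs, and the median depth of a member was 19724 UMIs (all live 1), 18154 (sorted CAF 1), 5928 (all live 2) and 17027 (sorted CAF 2). Members numbered 963 of 1933 cells in all live 1 (49.8%), 1027 of 1402 in sorted CAF 1 (73.3%), 27 of 3427 in all live 2 (0.788%) and 81 of 1222 in sorted CAF 2 (6.63%). Tumor 1 therefore supplied nearly all of the members, and all live 2 stood apart with 27 cells and 264692 UMIs against 1779864 to 21462076 in the other sums. In all live 2, 11 of the 27 members (40.7%) carried at least 20 UMIs per 10000 of 13 acinar genes, against 6 of 81 (7.41%) in sorted CAF 2, 3 in all live 1 and 0 in sorted CAF 1. Values include these acinar-rich cells unless stated, and some results are also given without them. In sorted CAF 2, 24 members (29.6%) had at least 3 UMIs per 10000 of the fibroblast genes Col1a1, Col1a2, Col3a1 and Dcn, against 11, 7 and 1 in all live 1, sorted CAF 1 and all live 2. Libraries shared 4 to 6 cell barcodes per pair, and 4 barcodes were members in both libraries of tumor 1. In these sums, fewer transcripts per cell and fewer cells that carry a transcript cannot be told apart.

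The share of keratin-positive cells that were Epcam-low is set by the rule itself and is given as a description. Keratin-positive here means every condition of the rule except the one on Epcam. In tumor 1, 96.0% of keratin-positive cells of the all live library were Epcam-low (963 of 1003, exact Clopper-Pearson 95% interval 94.6 to 97.1), and 99.9% in the sorted library (1027 of 1028, 99.5 to 100). Tumor 2 had 13.8% in the all live library (27 of 195, 9.33 to 19.5) and 75.7% in the sorted library (81 of 107, 66.5 to 83.5). The sorted library was the higher one in both tumors, by a small margin in tumor 1, where most keratin-positive cells of the unsorted suspension were already under the Epcam limit, and by a wide one in tumor 2. With every cell thinned to 3000 UMIs the shares were 93.8%, 97.7%, 12.3% and 68.2% in the same order. These intervals cover counting error only, and with 2 libraries per group no exact permutation test can give a two-sided p below 0.33, so no test was made.

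**Figure D1:**
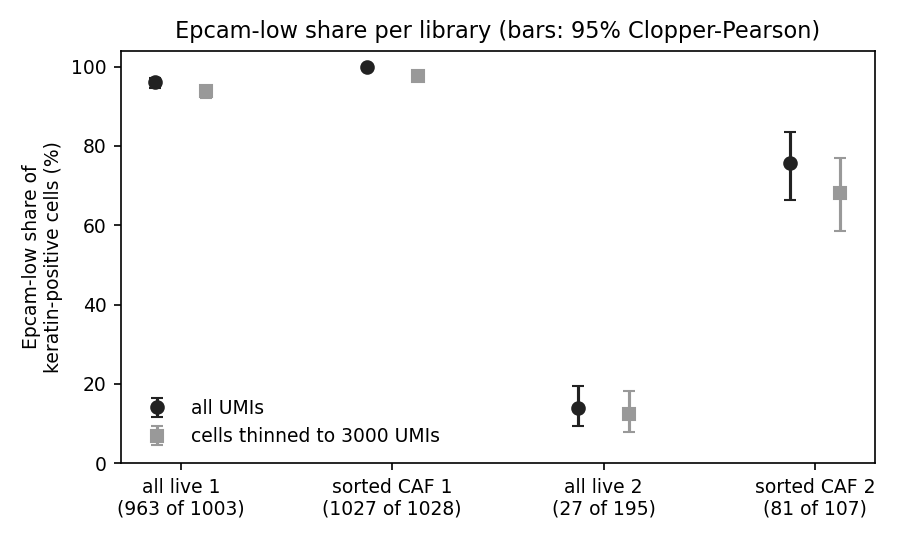
Percentage of keratin-positive cells that were Epcam-low in each library, with 95% Clopper-Pearson bars, for all UMIs (black circles) and for cells thinned to 3000 UMIs (grey squares). Both tumor 1 libraries sit above 93%, while in tumor 2 the all live library is at 13.8% and the sorted one at 75.7%.

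Epcam had no UMI at all in 846, 946, 18 and 63 of the members of all live 1, sorted CAF 1, all live 2 and sorted CAF 2. Just inside the limit, 8, 4, 3 and 2 members had 2 to 3 Epcam UMIs per 10000, and just outside it 5, 0, 5 and 2 keratin-positive cells had 3 to 4. Cells far outside it, at 30 or more per 10000, numbered 13, 0, 37 and 1. On the keratin side, 11, 11, 5 and 10 members had 20 to 25 Krt8 plus Krt18 UMIs per 10000, and 6, 11, 6 and 15 cells fell just short at 15 to 20. Members of tumor 1 had more keratin than those of tumor 2, with medians of 104, 109, 41.6 and 35.4 UMIs per 10000.

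Genes that the rule did not use were checked against the epithelial label. Levels are CPM, the UMIs of a gene scaled to a common total of summed member UMIs with TMM factors, listed as all live 1, sorted CAF 1, all live 2 and sorted CAF 2. Krt19, a ductal keratin, stood at 2335, 2361, 919 and 1013 CPM, and Krt7 at 409, 426, 683 and 959.5 CPM. Cdh1, which encodes E-cadherin, stood at 119, 109.6, 76.3 and 103 CPM. After thinning to 3000 UMIs, Krt19 was seen in 92.2%, 90.9%, 66.7% and 69.1% of members, against 10.5%, 13.5%, 0% and 1.28% of fibroblast-rule cells. Fibroblast-rule cells are cells of the same libraries with at least 20 collagen and Dcn UMIs and under 3 keratin UMIs per 10000. Cldn4, a tight-junction claudin, was at 1.42 and 2.00 CPM in tumor 1 against 58.1 and 11.3 CPM in tumor 2. Of 25 listed epithelial genes, 20 had enough UMIs for a test. Without the acinar-rich cells, Grhl2 had 7, 0, 0 and 0 UMIs and Esrp1 0, 1, 0 and 0, so the label does not rest on every epithelial gene.

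Vim, the mesenchymal filament gene, was high in the members of both fractions. It stood at 2544, 2517, 1683 and 1481 CPM, and after thinning it was seen in 97.9%, 98.0%, 57.1% (12 of 21) and 88.9% of members. All live 2 had the lowest share, and the fractions overlapped. The log2 change, sorted minus all live, was -0.10 with a standard error (SE) of 0.19 (edgeR quasi-likelihood test with the tumor as a block, Benjamini-Hochberg adjusted p = 1). That change turned to 0.043 with Epcam-free members only, 0.023 without members that carried collagen UMIs, 0.094 with thinned cells and 0.85 with no Epcam limit.

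Over all genes, 11812 could be tested, 9 were higher in the sorted fraction (0.0762%) and 105 were lower (0.889%, together 0.965%) at an adjusted p under 0.05 in the same edgeR test. At an unadjusted p under 0.05 there were 316 genes. The median change over all tested genes was 0.02 on the log2 scale. Without the tumor as a block the test called 0 genes in either direction, with 74 at an unadjusted p under 0.05. DESeq2 with the block called 0 higher, with 18 at an unadjusted p under 0.05, and 42 lower, all 42 of them among the 105. With 1 library left out and no block, none was higher, and 8 were lower without all live 1, 0 without sorted CAF 1, 10 without all live 2 and 70 without sorted CAF 2. The blocked fit has 1 residual degree of freedom and found no spread specific to single genes (infinite prior degrees of freedom), so its small p-values lean on 1 dispersion trend shared by all genes and on the tumor with more UMIs of a gene. In 84 of the 105 lower genes and 8 of the 9 higher ones, both tumors moved in the same direction, and in 62 of the 105 and 7 of the 9 the sorted and all live sums did not overlap. Such a separation was also seen in 826 (6.99%, sorted below) and 1203 (10.2%, sorted above) of all tested genes. Of all tested genes, 2548 (21.6%) were lower in both tumors and 3512 (29.7%) were higher in both. Many directions rest on few UMIs: 24 of the lower genes had under 20 over both tumor 1 sums, and 44 had under 4 in all live 2.

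The proteins used to sort the cells came first among the tested genes. Pdpn, the positive marker, had 35, 16, 1 and 21 UMIs, or 1.71, 0.842, 3.63 and 11.3 CPM. It was lower in the sorted library of tumor 1 and higher in that of tumor 2, and its log2 change of -0.40 (SE 0.72) did not pass the test (edgeR adjusted p = 1). After thinning, Pdpn was seen in 0.519%, 0.292%, 0% and 1.23% of members, against 62.7%, 56.3%, 53.4% and 49.6% of fibroblast-rule cells. Few members of the podoplanin-positive sort thus carried a podoplanin transcript at that depth, in a 3' assay that read 14 of 1027 and 12 of 81 sorted members as positive without thinning. A count of 0 among the 21 thinned cells of all live 2 allows a share of up to 14.3%.

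Pecam1, which encodes the excluded marker CD31, stood at 92.6, 65.1, 10.9 and 17.2 CPM. The fractions overlapped, and the log2 change was -0.35 (SE 0.30, edgeR adjusted p = 1). Thinned shares were 21.8%, 17.8%, 0% and 6.17% of members. Each was below the 26.8%, 20.7%, 2.91% and 9.52% of fibroblast-rule cells of the same library. Unthinned, the members' shares were 75.6%, 64.5%, 7.41% and 28.4%. Whether these transcripts are background was not tested. Pdgfra, the fibroblast receptor in the listed stain, stood at 1.18, 0.790, 0 and 2.69 CPM with a log2 change of -0.32 (SE 0.90, edgeR adjusted p = 1).

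Genes higher in the sorted members were few, and 3 of the 9 encode ribosomal proteins. Rps29, a protein of the small ribosomal subunit, stood at 3541, 5046, 2209.7 and 7093 CPM. Both sorted sums lay above both all live sums, and it rose by 1.09 on the log2 scale (SE 0.19, edgeR adjusted p = 1.24e-06). Rps28, of the same subunit, stood at 2119, 2727, 880 and 2553 CPM and Rps27 at 39.9, 68.7, 43.6 and 121 CPM. Their sorted and all live sums did not overlap either, with log2 changes of 0.93 (SE 0.19) and 0.98 (SE 0.26). The whole ribosomal protein list, added after values were seen, did not follow. Of 82 tested members these 3 rose and none fell, with a median change of -0.08. In both tumors 43 of the 82 (52.4%) were lower, against 21.6% of all tested genes. Ribosomal protein genes have many near-identical pseudogene copies, so how reads were split among copies is uncertain.

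Atp5k, a small subunit of the mitochondrial ATP synthase, stood at 241, 341, 164 and 425 CPM and rose by 0.86 (SE 0.21, edgeR adjusted p = 0.00807). Malat1, an abundant nuclear long noncoding RNA, stood at 13904, 21259.5, 8817 and 15300.4 CPM and rose by 0.70 (SE 0.17, edgeR adjusted p = 0.00679). Both sorted sums were above both all live sums for each of these 2 genes. Malat1 lost its call without the acinar-rich cells (0.62, edgeR adjusted p = 0.0882). Gm10263, a pseudogene in the RefSeq table, stood at 50.3, 97.3, 36.3 and 195 CPM and rose by 1.36 (SE 0.25).

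Fibroblast-rule cells of the same libraries had changes of similar size in these genes. Their Rps29 level was 2043, 2972, 1404 and 4429 CPM, a log2 change of 1.10 (SE 0.27) that did not pass the test (edgeR adjusted p = 0.248). Their changes were 1.08 for Rps28, 1.15 for Rps27, 0.95 for Atp5k, 1.55 for Gm10263 and 0.46 for Malat1, none of them called. In that joint fit of both cell classes, Malat1 alone of the 6 genes was called in members (edgeR adjusted p = 0.0353). The change in members minus that in fibroblast-rule cells was -0.02 for Rps29 (SE 0.38) and ranged from -0.27 for Gm10263 (SE 0.42) to 0.23 for Malat1 (SE 0.20), each with an edgeR adjusted p = 1.

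Promoter sequence is shown for the small-subunit and ATP synthase genes that rose in both tumors, because they moved together. Each window holds the 120 bases before the start of the gene, on the gene's strand, in RefSeq's GRCm38.p6; Rps29 has no entry in the table. Capitals mark CTTCCG, searched with its complement CGGAAG on both strands, which is part of the site that ETS-family factors recognise.
Rps27, chr3:90213649-90213768, minus strand: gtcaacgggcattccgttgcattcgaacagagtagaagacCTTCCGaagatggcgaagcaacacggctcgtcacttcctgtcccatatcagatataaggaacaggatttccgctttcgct
Rps28, chr17:33824563-33824682, minus strand: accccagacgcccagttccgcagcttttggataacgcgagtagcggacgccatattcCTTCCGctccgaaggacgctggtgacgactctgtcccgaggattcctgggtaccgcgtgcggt
Atp5k, chr5:108434400-108434519, minus strand: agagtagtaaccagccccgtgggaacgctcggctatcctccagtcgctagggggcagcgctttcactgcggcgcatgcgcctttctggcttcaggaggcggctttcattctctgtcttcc
Rps27 and Rps28 each held 1 match and Atp5k none, while 3021 of 32851 promoters (9.20%) held the motif in a window of that length. A match is a description of these letters and shows no binding.

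A pair of gastric genes was also called higher, resting on tumor 2. Pancreatic carcinoma can take on a gastric foveolar program, in which trefoil factors and gastrokines protect the mucosal surface. Gkn3, a gastrokine, stood at 5.09, 6.05, 29.1 and 230 CPM, a log2 change of 1.18 (SE 0.29, edgeR adjusted p = 0.00495) that came to 0.24 in tumor 1 and 2.98 in tumor 2. Tff1, a trefoil peptide, stood at 6031, 5321, 222 and 2142 CPM. Its sorted sum was lower in tumor 1 and higher in tumor 2, with log2 changes of -0.18 and 3.27, and the fitted change was 1.34 (SE 0.21, edgeR adjusted p = 8.30e-08). Without acinar-rich cells Tff1 changed by 1.30 (SE 0.22) and Gkn3 by 1.12 (SE 0.28), both still called. With no Epcam limit Tff1 came to 0.0008 and Gkn3 to -1.51, and neither passed. Of the 11 tested foveolar genes these 2 rose and none fell, with a median of 0.22 that came to -0.12 in tumor 1 and 1.19 in tumor 2. Ctse, a gastric protease, stood at 743, 780.4, 199.9 and 560 CPM and Anxa10 at 663, 662, 87.2 and 248 CPM, and neither was called.

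**Figure D2:**
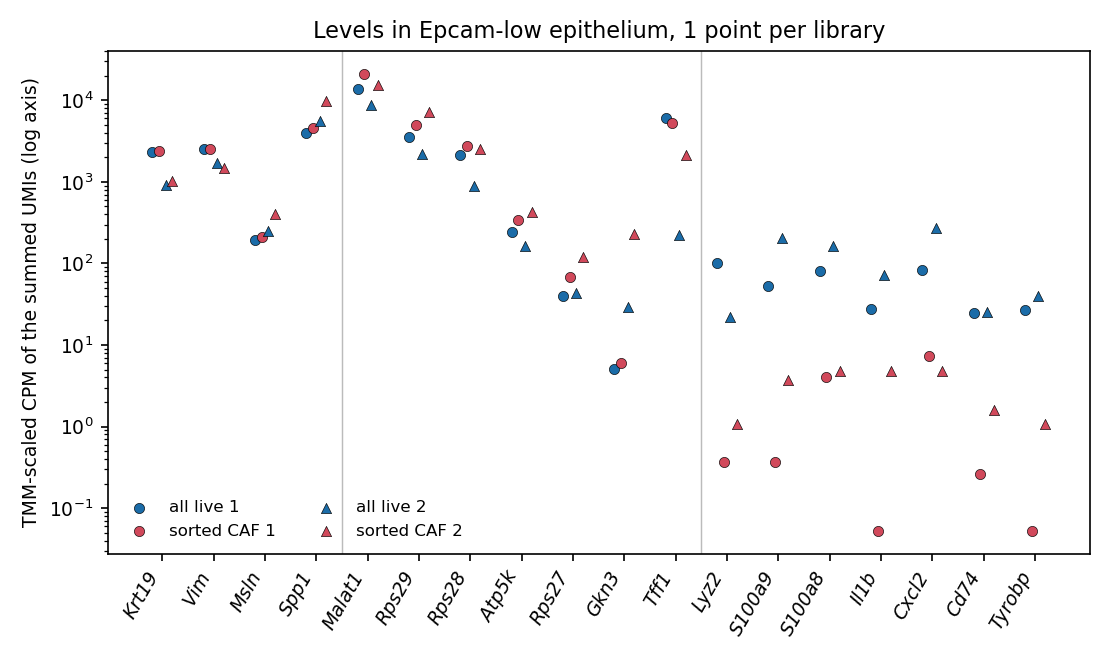
TMM-scaled CPM of summed UMIs on a log axis, 1 point per library, with all live in blue, sorted CAF in red, tumor 1 as circles and tumor 2 as triangles; the left panel holds epithelial and secreted genes that were not called, the middle one genes called higher, the right one genes called lower. Lyz2, S100a9 and the other genes at the right lie lower in both red points than in both blue ones, while Tff1 in the middle is high in both tumor 1 libraries.

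Many leukocyte genes fell in the sorted members. Lyz2, which encodes myeloid lysozyme, stood at 100.1, 0.369, 21.8 and 1.08 CPM. Both sorted sums lay below both all live sums, and Lyz2 fell by 7.60 on the log2 scale (SE 0.47, edgeR adjusted p = 2.46e-53). S100a9, a calcium-binding alarmin of neutrophils, stood at 53.6, 0.369, 204 and 3.77 CPM and fell by 6.56 (SE 0.38). S100a8, its partner subunit, stood at 80.2, 4.05, 164 and 4.85 CPM and fell by 4.51 (SE 0.31). For all 3 genes the fractions did not overlap.

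Il1b, the inflammatory cytokine interleukin 1 beta, stood at 27.9, 0.0526, 72.7 and 4.85 CPM and fell by 5.92 (SE 0.45, edgeR adjusted p = 1.03e-36). Cxcl2, a neutrophil-attracting chemokine, stood at 83.4, 7.42, 273 and 4.85 CPM and fell by 4.17 (SE 0.29). Ccl6, a myeloid chemokine, had 990, 8, 10 and 0 UMIs and fell by 6.93 (SE 0.48). Again no sorted sum reached an all live sum. C1qc, a chain of the complement C1q of macrophages, had 329 and 3 UMIs in the all live sums and none in the sorted ones, which makes it at least 110-fold lower against a floor of 3 UMIs over the group. On the same floor the chemokine Ccl4 was at least 55.8-fold lower, and 11 of the 105 lower genes had no UMI in either sorted sum. Ccl4 had 167 and 2 UMIs in the all live sums, so the bounds of C1qc and Ccl4, pooled over tumors, rest almost wholly on tumor 1.

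By list, 8 of 12 tested macrophage or monocyte genes fell and none rose, with a median log2 change of -6.11, against 0.02 over all tested genes. Those that fell included Tyrobp (27.2, 0.0526, 39.98 and 1.08 CPM), a signalling adaptor of myeloid cells, and Ctss (28.0, 0.105, 10.9 and 0 CPM), a lysosomal protease. Csf1r, Cd68, Mrc1 and Apoe did not pass: Csf1r stood at 31.2, 24.5, 7.27 and 0.538 CPM and Apoe at 490.4, 309, 79.96 and 83.5 CPM. Of 8 tested neutrophil genes 7 fell, with a median of -5.22, and Hdc was not called. Of 5 tested class II presentation genes 4 fell, with a median of -4.50. Cd74, the invariant chain of class II molecules, stood at 24.6, 0.263, 25.4 and 1.62 CPM and fell by 5.86 (SE 0.53). No T, NK or B cell gene had enough UMIs for a test.

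In all live 1 these transcripts were spread thinly over many members. In all live 2, S100a8 and S100a9 had 45 and 56 UMIs, but 13 and 12 without the acinar-rich cells, so most of them lay in those cells. Thinned to 3000 UMIs, Lyz2 was seen in 15.1% (12.9 to 17.5) of members of all live 1, 0 of 1027 in sorted CAF 1, 0 of 21 in all live 2 and 0 of 81 in sorted CAF 2. The exact 95% upper limits of the last 3 shares were 0.359%, 16.1% and 4.45%. Unthinned, at median depths of 19724, 18154, 5928 and 17027 UMIs, the shares were 59.1%, 0.682%, 18.5% and 2.47%. S100a8 was seen in 17.9%, 0.779%, 4.76% and 2.47% of thinned members. Fibroblast-rule cells gave thinned shares of 18.3%, 3.37%, 17.5% and 5.13% for Lyz2 and 24.8%, 0.962%, 19.4% and 2.67% for S100a8. For these 2 genes the members' shares were at or below those values in every library. Whether they are background or expression by epithelium was not tested. S100a9 was seen in 13.0%, 0.0974%, 23.8% and 1.23% of thinned members against 9.80%, 0.481%, 18.4% and 1.93% of fibroblast-rule cells. Il1b was seen in 6.85%, 0%, 9.52% and 3.70% of thinned members against 6.54%, 0%, 12.6% and 0.749% of fibroblast-rule cells. Members thus had the higher share of S100a9 in both all live libraries and of Il1b in all live 1 and sorted CAF 2, with exact 95% intervals that overlapped those of fibroblast-rule cells.

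The leukocyte content of the libraries moved in the same direction. Summed over all cells and genes of the list, macrophage or monocyte genes made up 7824, 698, 24715 and 1032 CPM of the libraries and 754, 335, 261 and 105 CPM of the member sums. Apoe, a gene of that list that was not called, alone stood at 464, 297, 87.5 and 89.4 CPM in members without the acinar-rich cells. Much of the list's member sum in tumor 1 and in sorted CAF 2 was therefore this gene. Neutrophil genes made up 3098, 60.5, 13774 and 613 CPM of the libraries and 261, 13.4, 816 and 24.2 CPM of the member sums. In fibroblast-rule cells the neutrophil list stood at 637, 358, 635 and 153 CPM, lower in both sorted libraries as well. Their macrophage or monocyte list stood at 4068, 4163, 1178 and 627 CPM, which was lower in the sorted library of tumor 2 and not in that of tumor 1. All 13 macrophage and all 10 neutrophil genes were detected in members of all live 1, while Adgre1 and C1qc were at 0 in members of both sorted libraries. Adgre1 was also at 0 in members of all live 2. At least 10 times higher levels in Ptprc-positive cells than in members of all live 1 were found for 67 of the 105 lower genes (63.8%), against 211 of all tested genes (1.79%). The part of these cells' RNA in the lower genes was not tested.

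Pancreatic exocrine genes were the second group that fell, and most of these calls rested on tumor 2. Acinar cells make and store digestive enzymes, and their transcripts are among the most abundant in the normal pancreas. Ctrb1, chymotrypsinogen B, had 3, 1, 4793 and 3920 UMIs, or 0.147, 0.0526, 17419.6 and 2110.8 CPM, and fell by 2.99 (SE 0.27). Prss2, a trypsinogen, had 1, 2, 3068 and 1859 UMIs and fell by 3.34 (SE 0.28), and Cpa1, carboxypeptidase A1, had 1, 0, 249 and 108 UMIs and fell by 3.95 (SE 0.34). The tumor 1 sums of these 3 genes were near 0 in both fractions, so their calls come from 1 library against 1 library. Try5, a trypsinogen gene that was also called, was lower in the sorted library of tumor 1 too, with 246, 85, 4178 and 2256 UMIs and log2 changes of -1.39 and -3.64 in the 2 tumors. Without the acinar-rich cells Try5 had 38, 85, 5 and 6 UMIs. The sorted sum of tumor 1 was then the higher one, and Try5 was not called (log2 change 0.39, SE 0.65). Of 12 tested acinar genes 9 fell, with a median of -3.25 that came to 0.00 in tumor 1 and -3.61 in tumor 2. Without the acinar-rich cells only 4 acinar genes could be tested, none was called at the background of 0.520% for lower genes, and the median was -0.19. Regenerating-family genes, picked after their values were seen, followed the same pattern: Reg3b stood at 0.637, 0.0526, 7865 and 1123 CPM.

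Leaving out the acinar-rich cells gave 8 higher (0.0682%) and 61 lower genes, all of them among the 9 and 105. Lyz2 then stood at 95.4, 0.355, 27.6 and 0.576 CPM (scaled to the sums alone) and fell by 7.83 (SE 0.48), and S100a9 at 49.3, 0.355, 55.3 and 4.04 CPM, a fall of 6.00 (SE 0.44). S100a8 stood at 73.8, 3.90, 59.9 and 5.19 CPM and fell by 4.07 (SE 0.34). Il1b stood at 26.5, 0.0507, 36.8 and 5.19 CPM and fell by 5.64 (SE 0.49). The macrophage list kept 8 lower genes with a median of -5.97, and the neutrophil list 7 with a median of -4.85.

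**Figure D3:**
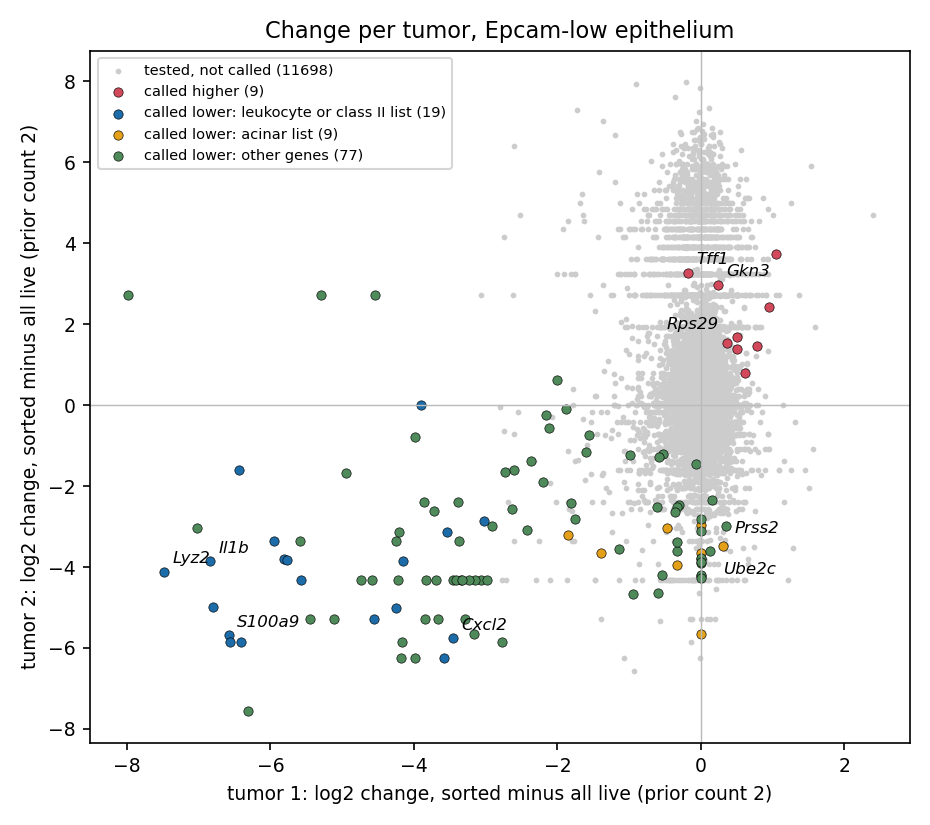
Log2 change of each tested gene, sorted minus all live with a prior count of 2, in tumor 1 (horizontal) against tumor 2 (vertical); grey genes were not called, red were called higher, and blue, orange and green were called lower in the leukocyte or class II, acinar and other sets. Blue genes such as Lyz2 lie at the lower left, orange acinar genes such as Prss2 lie low near 0 on the tumor 1 axis, and grey bands in tumor 2 reflect its low counts.

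Epithelial and mesenchymal programs gave few calls. Of 25 listed epithelial identity genes 20 could be tested and none was called, with a median change of 0.07 and a range from -0.75 to 0.45. Elf3, an epithelial transcription factor, stood at 413, 437, 54.5 and 133 CPM, and Krt20 at 579, 636, 109 and 208 CPM, with sorted and all live values overlapping for both. Of 19 tested genes of mesenchymal transition 1 fell and none rose, with a median of -0.10. The gene that fell was Tnc, the matrix glycoprotein tenascin C, at 4.41, 0.158, 47.2 and 7.54 CPM (-3.52, SE 0.64). The transcription factors Zeb1 (19.2, 19.7, 29.1 and 30.2 CPM) and Twist1 (22.2, 21.9, 14.5 and 21.5 CPM) were not called, nor was Fn1, fibronectin (106, 78.8, 171 and 204 CPM).

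Among 23 tested secreted signals 3 fell and none rose, with a median of -0.40. Cxcl1, a neutrophil chemokine, stood at 24.2, 19.5, 327 and 58.7 CPM and fell by 1.26 (SE 0.25). Ccl2, a monocyte chemokine, stood at 21.3, 9.58, 65.4 and 5.38 CPM and fell by 1.73 (SE 0.32), and Lcn2, a siderophore-binding protein of neutrophils and stressed epithelium, stood at 7.89, 0.316, 199.9 and 116 CPM and fell by 2.05 (SE 0.30). Without the acinar-rich cells Lcn2 was no longer called (-1.14, SE 0.36, edgeR adjusted p = 0.216), and in tumor 2 it stood at 9.21 CPM in the all live sum against 104 CPM in the sorted one. The sums of Ccl2 did not overlap, while those of Cxcl1 and Lcn2 did. Spp1, osteopontin, was the most abundant member of the list at 3953, 4551, 5561 and 9944 CPM, and its change of 0.52 (SE 0.18) was not called (edgeR adjusted p = 0.297). Msln, mesothelin, which pancreatic carcinoma cells and mesothelium share, stood at 195, 211, 247 and 401 CPM and was not called.

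Cell cycle, stress and metabolism lists gave 1 call. Of 22 tested cell cycle genes Ube2c, a ubiquitin-conjugating enzyme of mitosis, fell, at 139.8, 153, 302 and 24.8 CPM (-1.31, SE 0.25, edgeR adjusted p = 2.40e-05). It was slightly higher in the sorted library of tumor 1 and lower in that of tumor 2, and with thinned cells the change was -0.02. The list's median was 0.09 in tumor 1 and -0.82 in tumor 2. Top2a, a topoisomerase of dividing cells, stood at 20.7, 22.0, 149 and 21.5 CPM and was not called (edgeR adjusted p = 0.0775). None of 21 tested immediate early and heat shock genes was called (median 0.23, with Fos at 1118, 1346, 1519 and 2243 CPM), and none of 23 tested glycolysis and hypoxia genes (median 0.12, with Ldha at 2703, 2805, 858 and 974 CPM). Interferon response genes (15 tested, median -0.19) and class I presentation genes (7 tested, median -0.19) gave no call.

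Listed markers of other stromal cells in the member sums were not called, apart from Slpi. Outside the marker lists, Aebp1 (-1.41, SE 0.36), Fstl1 (-1.47, SE 0.37), Timp3 (-1.10, SE 0.28), Timp1 (-0.83, SE 0.21) and Meg3 (-1.25, SE 0.30) were among the 105 lower genes. Each had the lower sum in the sorted library of both tumors. Whether their transcripts come from stromal cells was not tested. Of 9 tested fibroblast genes none was called, with medians of -0.88 in tumor 1 and 0.84 in tumor 2. Col1a1, the main fibrillar collagen, stood at 26.0, 13.3, 90.9 and 122 CPM and Dcn at 33.0, 12.9, 21.8 and 39.3 CPM, so the sorted sum was the lower one in tumor 1 and the higher one in tumor 2. Summed fibroblast genes made up 114, 66.9, 246 and 540 CPM of members against 2036, 2771, 1928 and 28243 CPM of the whole libraries. Slpi, a secreted protease inhibitor on the mesothelial list, stood at 21.8, 2.74, 39.98 and 4.85 CPM and fell by 3.0 (SE 0.39). Endothelial (5 tested), pericyte or smooth muscle (5), erythroid (3) and mitochondrial genome (13) genes gave no call. Cfd, an adipocyte protease, had 5, 40, 0 and 9 UMIs and was not called (3.12, SE 1.01, edgeR adjusted p = 0.170).

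**Figure D4:**
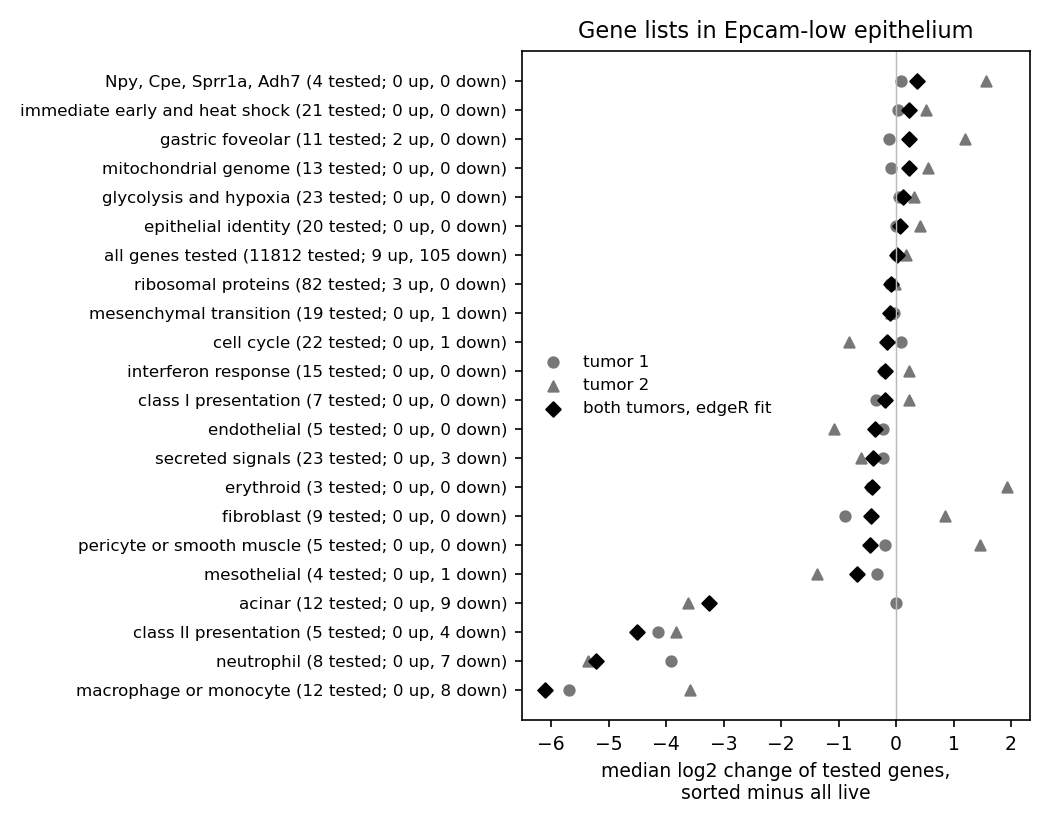
Median log2 change, sorted minus all live, over the tested genes of each list in tumor 1 (circles), tumor 2 (triangles) and the fit over both (diamonds), with counts of genes tested, called higher (up) and called lower (down). Macrophage, neutrophil and class II lists lie far to the left in both tumors, and the acinar list in tumor 2 alone, while most epithelial programs lie near 0 in tumor 1 and in the fit. Medians in tumor 2 were 1.19 for the gastric foveolar list, 1.56 for Npy, Cpe, Sprr1a and Adh7, and -0.82 for the cell cycle list.

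A second comparison asked whether the change between fractions differed between the members and the 1425 fibroblast-rule cells, with 153, 208, 129 and 935 cells in the 4 libraries. Of 10760 genes tested for that difference, 15 had a lower change in epithelium (0.139%) and 0 a higher one, with 270 at an unadjusted p under 0.05 (edgeR, interaction of fraction and class). Without the block, and with any 1 library left out, it gave 0 genes in either direction, so these differences depend on the block. Srgn, a proteoglycan of secretory granules, stood at 27.9, 2.93, 36.9 and 0.540 CPM in members and 159, 130.3, 163 and 116 CPM in fibroblast-rule cells. Its change was -3.47 in members and -0.39 in fibroblast-rule cells, a difference of -3.08 (SE 0.39, edgeR adjusted p = 0.00650).

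G0s2, an inhibitor of fat breakdown, stood at 13.6, 1.49, 33.2 and 4.32 CPM in members against 111, 128, 130 and 99.4 CPM in fibroblast-rule cells, a difference in change of -3.03 (SE 0.37). Tceal8 stood at 2.69, 0.331, 47.9 and 5.40 CPM against 289, 286, 248 and 283 CPM, a difference of -3.14 (SE 0.39). Both genes were far higher in fibroblast-rule cells of most libraries, by the smallest factor in all live 2. In those cells both were nearly level between fractions. Lyz2 changed in both classes, by -7.63 in members and -3.18 (SE 0.32) in fibroblast-rule cells, and the difference of -4.46 (SE 0.63) was called (edgeR adjusted p = 0.0148). In fibroblast-rule cells Lyz2 stood at 73.5, 14.3, 213 and 17.97 CPM. Lyz2 and the chemokine Ccl24 (difference -6.59, SE 0.86) were no longer called without likely doublets, at edgeR adjusted p = 0.0639 and 0.121.

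**Figure D5:**
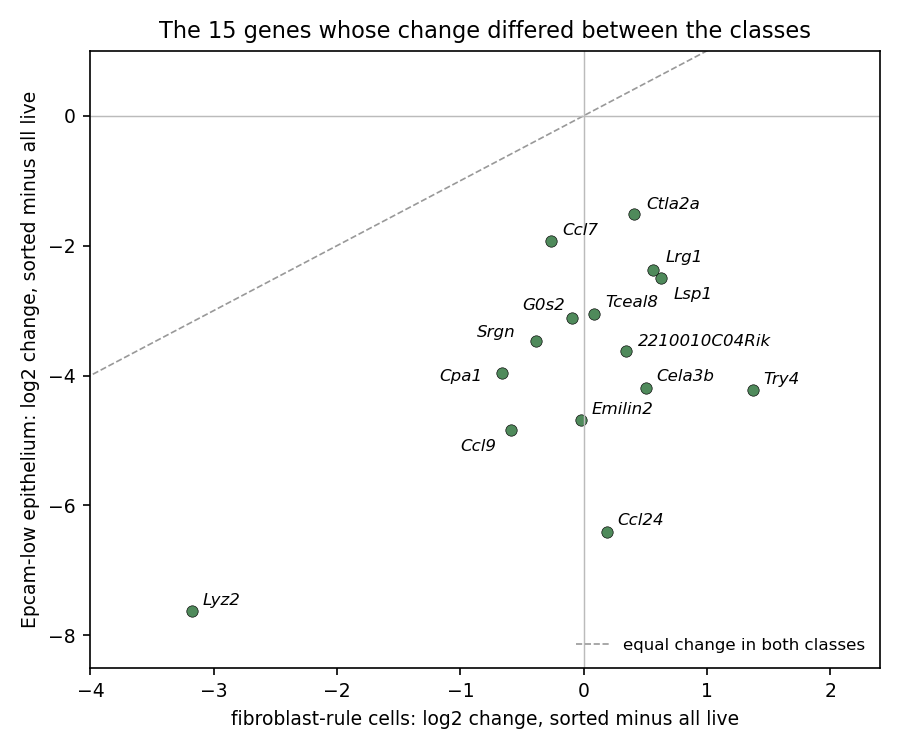
Log2 change, sorted minus all live, in fibroblast-rule cells (horizontal) against Epcam-low epithelium (vertical) for the 15 genes whose change differed between the classes, with a dashed line of equal change. All 15 lie below the line, and Lyz2 is the one whose fall in fibroblast-rule cells also passed the test.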

How the data were processed

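Single-cell 3' libraries of 2 tumors in 2 fractions were used, 4 in all, with 14972652 to 30950993 UMIs each. The deposited counts are whole UMI counts per gene and barcode, and the submitters' processing notes name CASAVA 1.4, Cell Ranger 2.0.0 and the build mm10 for the authors' work. Deposited gene and barcode tables hold names only (other text). Technical replicates named in the design text could not be told apart, so each library was 1 sample.

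Member counts were summed per library and tested with edgeR 4.0.16 in R 4.3.3 (quasi-likelihood test, TMM, filterByExpr, two-sided, Benjamini-Hochberg adjustment at 0.05), with the tumor as a block because both libraries of a number come from 1 tumor. Same-tumor deviations correlated at r = 0.52, a value that 2 groups of 2 give alike for both pairs. SE is the log2 change over the square root of F. A prior count of 2 was added for changes within 1 tumor. DESeq2 1.42.0 was an alternative. On simulated counts for this comparison with 11812 genes, the test recovered 90% of 4-fold and 97% of 16-fold changes and also called 9 unchanged genes. Those counts were drawn with 1 dispersion for all genes (0.0266, from the blocked fit) and the same fold in both tumors. The rates therefore cannot say how reliable the calls are where spread differs between genes or tumors.

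Shares have 95% Clopper-Pearson intervals, also after thinning to 3000 UMIs. Doublets were scored with scrublet in scanpy 1.11.5. Its automatic calls marked 41 of 8282 barcodes and were taken as not having worked; doublets were kept, and leaving out the 163 highest scores was an alternative.

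Named genes were up to 12 per direction with the largest change among called genes that moved alike in both tumors at a mean of at least 20 CPM, the 5 smallest adjusted p of the second comparison, the gate's targets and the members of the gene lists. The members and lists were chosen with earlier results of these data known. Of list genes, Trac had no entry. Genes of the cell rule were not tested as findings. One gene of the epithelial list is not reported here.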

Additional observations from a re-analysis of the deposited data

Results flagged for a closer look

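Among the called genes and the gate's targets, 6 with at least 10 UMIs in each tumor had a sorted sum that moved one way in tumor 1 and the other way in tumor 2; with 1 library per fraction and tumor the differences between tumors were not tested. As log2 change of tumor 2 minus that of tumor 1, the difference was 3.45 for Tff1 (-0.18 in tumor 1, 3.27 in tumor 2) and 2.62 for Thbs1, the matrix protein thrombospondin 1 (-2.01 and 0.61). It was -3.72 for Ube2c (0.13 and -3.60) and -2.49 for the galectin gene Lgals2 (0.15 and -2.33). For the gate's targets it was 2.47 for Pdpn (-0.88 and 1.59) and 1.16 for Pecam1 (-0.51 and 0.65).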

How the results depend on the processing

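Counts of genes higher and lower (9 and 105) changed by over 1.5 times in some settings. No replicate block gave 0 and 0, DESeq2 0 and 42, thinned cells 1 and 43, members with Epcam at 0 gave 5 higher, no Epcam limit 3 higher, and leaving out acinar-rich cells (chosen after seeing the data) 61 lower, or 0 and 0 with no replicate block. Leaving out 1 library, with no replicate block, gave 0 higher throughout and 0 to 70 lower: 8 without all live 1, 0 without sorted CAF 1, 10 without all live 2 and 70 without sorted CAF 2. The class comparison (0 and 15) gave 0 lower with no replicate block and with each library left out, 23 with RLE scaling, 4 without doublets, 8 without acinar-rich cells, and 4 higher and 69 lower with no count filter. The cause of these shifts was not tested.

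Thinning gave Epcam-low shares of 93.8% in all live 1 and 97.7% in sorted CAF 1, outside the unthinned 95% intervals, and of 12.3% in all live 2 and 68.2% in sorted CAF 2, inside them. A keratin limit of 40 gave 63.5% in sorted CAF 2. Of 27 genes with shares, 6 were lower in the sorted library of both tumors with thinning and 9 without.

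For named genes, 335 alternative values kept direction and side of the threshold, 156 lost the call and 30 reversed. Leaving out 1 library spanned -1.01 to 4.48 for Gkn3, -0.70 to 4.01 for Tff1 (-0.55 without sorted CAF 1), -10.30 to 4.19 for Clps, -15.52 to 8.87 for Cpa1, -16.85 to 10.58 for 2210010C04Rik, -8.43 to 3.33 for Ctrl and -13.93 to 7.86 for Rnase1, all of these exocrine reversals without all live 2. It spanned -1.23 to 2.52 for Pdpn (0.53 and 1.64 without all live 1 and 2), -1.74 to 1.87 for Pecam1 (0.19 without sorted CAF 2), -0.43 to 0.33 for Pdgfra, -0.54 to 0.26 for Vim (0.18 without all live 1) and -0.70 to 0.81 for Krt19 (-0.48 without all live 2). Other reversals: with no replicate block Pdpn was 1.46 and Pdgfra 0.50, and without acinar-rich cells as well 1.38 and 0.50; DESeq2 gave Pdgfra 0.44; no Epcam limit gave Gkn3 -1.51, Pdgfra 0.034, Vim 0.85 and Krt19 -0.20; Vim was 0.043 with Epcam at 0, 0.023 without collagen-carrying cells and 0.094 with thinned cells. Depth limits all live 2 most: 44 of the 105 lower genes had under 4 UMIs there.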
